A study of Homo sapiens with 2 samples.

Results

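The genes described here are 42 listed members of the Wnt and beta-catenin pathway, read by their annotated symbols on a pair of Affymetrix oligonucleotide arrays of the U133 Plus type. Of the 42, 38 had at least 1 probe set annotated to that gene alone, and all 38 were detected. Over the arrays, 13150 of 19775 genes with such a probe set were detected, and 95 of 119 on a wider list of pathway genes. The members were chosen with earlier results of these data known, so their full detection is not a finding about the pathway. WNT3, PORCN, FZD8 and TCF7 had no probe set with exactly 1 symbol in the annotation used here and were not analysed. A gene was taken as detected when its brightest probe set averaged above 0.92 over the arrays, which is the middle value of that average among non-control probe sets. Each gene is given by its brightest probe set, and its other detected probe sets are given beside it.

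The first array held RNA from 293T cells transfected with synthetic miR-941 and precipitated with an Ago2 antibody. The control array held RNA from 293T cells transfected with a scrambled oligonucleotide. Each was given at 30 nmol/l. 293T is a human embryonic kidney line that carries the SV40 large T antigen, and Ago2 is the Argonaute protein that carries microRNAs to their target mRNAs. The control is called an Ago2 precipitate in its title, while its antibody entry names nonimmune IgG beads. If that entry holds, effects of the oligonucleotide and of the antibody cannot be told apart. There was 1 array per group and no array of input RNA, so no test was possible, no value has a replicate error, and recovery in the precipitate cannot be told apart from the mRNA level in the cells. Fewer cells with an mRNA and less of it per cell cannot be told apart either.

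Values are the authors' RMA expression values, taken as log2. Every difference below is the log2 value on the miR-941 array minus that on the control array. As background, 46.3% of all 13150 detected genes read higher with miR-941, 42.4% read lower and 11.3% were exactly equal, and 0.517% differed by 2-fold or more. The 293T line showed its described genes VIM (8.70 on the miR-941 array and 8.82 on the control array) and NEFL (7.37 and 6.99). By its mean, KRT8 was the only 1 of 8 such markers below the detection level. PAX2, another of them, was dim (1.23 and 0.86), and its control reading was below that level. Of 9 markers of other cell types with a probe set, PTPRC, CD3E, ALB, DCN and MYH7 were below it. The other 4, COL1A1, VWF, PECAM1 and KRT5, read between 1.08 and 2.48 on the miR-941 array and between 0.66 and 2.72 on the control array. The 5′ control of the actin mRNA read 6.49 on the miR-941 array and 7.15 on the control array (-0.66), against -0.04 at its 3′ control, and GAPDH had -0.19 and 0.05 at the same ends. The part of these control values in the differences below was not tested.

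In the canonical Wnt pathway, secreted Wnt proteins bind Frizzled receptors and the co-receptors LRP5 and LRP6. Without a Wnt signal, beta-catenin is phosphorylated in a destruction complex built on APC and the axins, and is then degraded. With a signal, Dishevelled proteins hold that complex at the membrane, and beta-catenin collects in the nucleus and acts with TCF and LEF factors. The pathway is known for its part in kidney development.

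The microRNA that was added is shown with its seed, the 7 bases at positions 2 to 8 from its 5′ end, in capitals. Its hairpin precursor is shown with the mature part in capitals.
hsa-miR-941: cACCCGGCugugugcacaugugc
MIR941-1 hairpin: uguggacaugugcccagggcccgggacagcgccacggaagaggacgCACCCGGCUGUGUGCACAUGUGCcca
Both are taken from RefSeq on GRCh38.p14, where the mature form of MIR941-1 lies at chr20:63919495-63919517 and its hairpin at chr20:63919449-63919520, on the plus strand. The table holds 5 gene copies with this same mature sequence. Of 2370 mature human microRNA names in it, only miR-941 has the seed ACCCGGC, whose complementary site in an mRNA would read GCCGGGT when written as DNA. Matches to that site in the mRNAs of the pathway were not analysed here.

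No Wnt pathway gene differed by 2-fold between the arrays. Of the 38, 15 read higher with miR-941, 20 read lower and 3 were equal, and the median difference was -0.05, against a median of 0.00 over all detected genes. At 1.5-fold only DKK1 was counted, on the higher side, where 2.94% of all detected genes were counted. Its control reading was below the detection level, and with low values set to that level 0 of the 38 genes were counted at 1.5-fold. None was 1.5-fold lower, where 2.87% of all were. The differences of the 38 genes had an SD of 0.24, and those of all detected genes 0.30. The disagreement between probe sets of 1 gene stood in for technical spread. Its pooled SD was 0.31 over the 6106 genes that had at least 2 detected probe sets, and 0.29 over the 23 such Wnt genes. By the first of these values, 7 of the 38 genes had a difference above the spread, where 25.2% of all detected genes did: DKK1, LRP5 and LGR4 were higher, and APC, DVL3, AXIN1 and LRP6 were lower. The shares of Wnt genes counted at 2-fold, at 1.5-fold and above the spread thus lay near or below those of all genes.

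**Figure D1:**
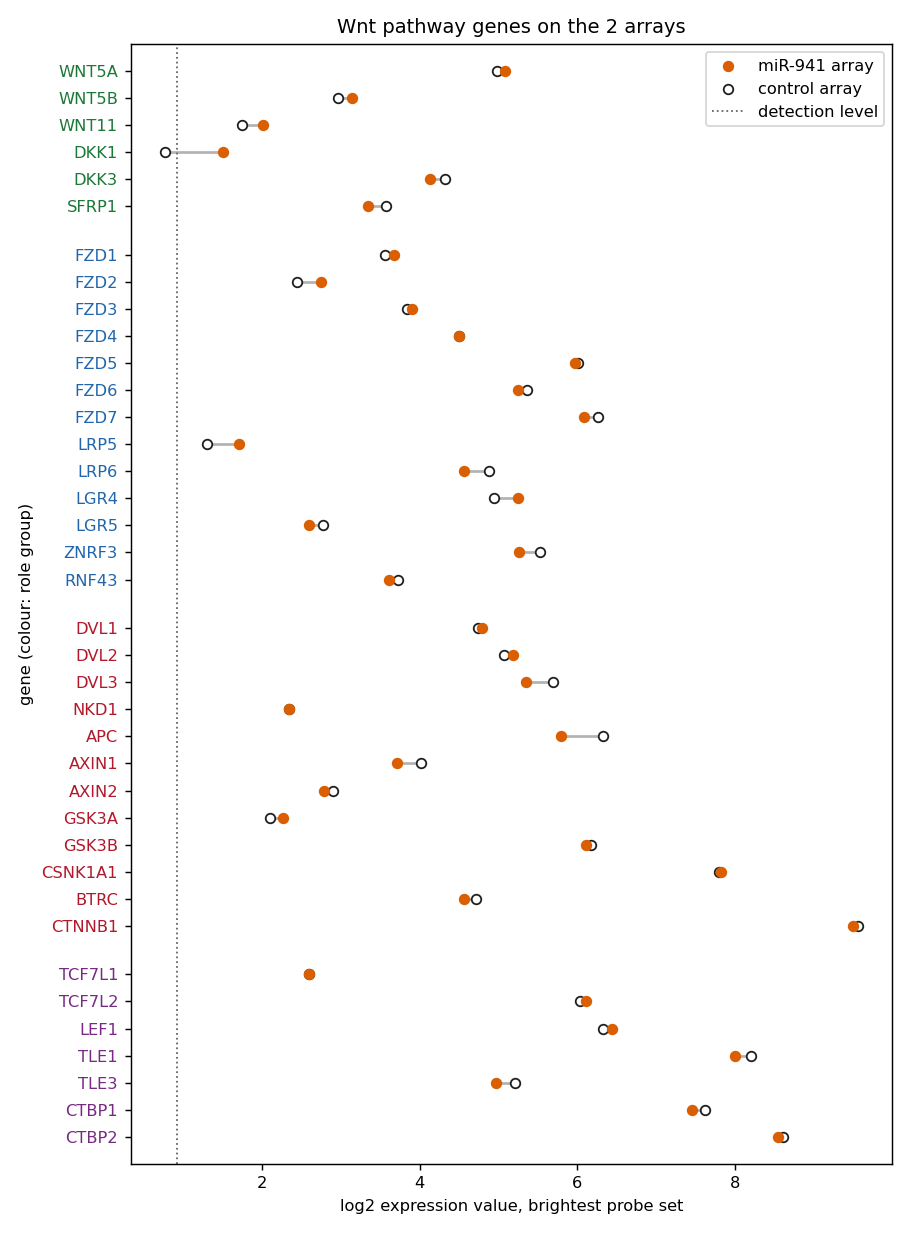
Log2 expression value of the brightest probe set (horizontal axis) for each of the 38 detected Wnt genes, grouped by role, with filled points for the miR-941 array and open points for the control array. The points of a gene lie close together, and the widest gaps are those of DKK1 (0.73) and APC (-0.53).

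Among ligands, the 3 Wnt genes measured among the members read slightly higher on the miR-941 array, and the secreted inhibitors went both ways. Detected Wnt ligands outside the members all read lower: WNT2B (-0.38), WNT4 (-0.34), WNT6 (-0.35), WNT7B (-0.26) and WNT10B (-0.47). Each of these had 1 detected probe set. They were dim, from 1.09 to 2.04 on the miR-941 array and from 1.43 to 2.51 on the control array. Of all 5064 detected genes with a mean up to 3.37, 36.3% read lower. Wnt ligands below the detection level went both ways, so the shared direction held only above that level. WNT16 (0.63), WNT2 (0.47) and WNT7A (0.19) were among those higher, and WNT1 (-0.37) and WNT9B (-0.24) among those lower. WNT5A, which signals mainly without beta-catenin, read 5.08 on the miR-941 array and 4.99 on the control array (0.10). Its second probe set, 213425_at, read 4.37 and 4.62 (-0.24), so the pair of WNT5A probe sets disagreed in direction. WNT5B, a close relative of WNT5A, read 3.14 on the miR-941 array and 2.97 on the control array (0.17). WNT11, known in kidney development for its part in branching of the ureteric bud, read 2.01 on the miR-941 array and 1.75 on the control array (0.26). Each of WNT5B and WNT11 had only 1 detected probe set, so their direction has no second detected reading.

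DKK1, a secreted inhibitor that binds LRP5 and LRP6 and is itself a target of beta-catenin, had the largest difference of the 38 genes on the brightest probe set. Its only probe set, 204602_at, read 1.5 on the miR-941 array and 0.77 on the control array (0.73). The control reading lay below the detection level, and with it set to that level the difference was 0.58. DKK3, a divergent relative of DKK1 whose role in Wnt signalling is less settled, was lower on all 3 detected probe sets. These read 4.13 on the miR-941 array and 4.33 on the control array (-0.20), 1.17 and 1.61 (-0.44), and 1.00 and 1.77 (-0.76). The size of the DKK3 difference was largest where the probe sets read near the detection level. Its probe sets below that level read higher (0.43, 0.21 and 0.18). SFRP1, a secreted decoy that binds Wnt proteins, read 3.34 on the miR-941 array and 3.58 on the control array (-0.24), with 1 of its 4 probe sets detected.

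The sequence before the start of DKK1 is shown because this gene had the largest difference and is a target of beta-catenin. The TCF and LEF motif was searched on both strands as CAAAG preceded by 2 letters that are each A or T, and the matches are in capitals.
DKK1 upstream window: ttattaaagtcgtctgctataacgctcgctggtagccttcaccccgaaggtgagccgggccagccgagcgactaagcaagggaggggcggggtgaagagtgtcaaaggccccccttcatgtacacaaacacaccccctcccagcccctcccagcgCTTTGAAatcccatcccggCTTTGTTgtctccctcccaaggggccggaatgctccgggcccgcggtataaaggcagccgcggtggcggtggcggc
This is chr10:52314031-52314280 on the plus strand of GRCh38.p14, from RefSeq, and covers the 250 bases before the annotated start. Its matches do not overlap: CTTTGAA begins 95 bases before the start and CTTTGTT begins 76 bases before it, and both are the motif read on the minus strand. Among 35116 such windows in all, 11.96% held a match, and 4 of 46 windows of 29 Wnt genes did (8.70%): those of DKK1, TCF7, TCF7L2 and CTBP2. A match is a description of letters and was not measured as a binding site, and these arrays measured RNA in a precipitate, not transcription.

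The Frizzled receptors measured among the members stayed within 0.31 of equality on their brightest probe sets, 3 higher, 3 lower and FZD4 equal. Outside the members, FZD9 read 2.16 on the miR-941 array and 1.89 on the control array (0.26). FZD10 read 1.18 and 1.60 (-0.42), so it went past 0.31. Each of FZD9 and FZD10 was dim and had 1 probe set. FZD1 read 3.67 on the miR-941 array and 3.55 on the control array (0.12), and its second probe set was higher as well (0.21). FZD2 read 2.75 on the miR-941 array and 2.44 on the control array (0.31) on its 1 detected probe set. FZD3 read 3.90 on the miR-941 array and 3.84 on the control array (0.07), while its other detected probe sets were equal and 0.58 higher. FZD4, the receptor of norrin as well as of Wnt proteins, read 4.50 on both arrays, equal to the last digit deposited. FZD5 read 5.97 on the miR-941 array and 6.01 on the control array (-0.04), with 0.26 on a dimmer probe set. FZD6 read 5.25 on the miR-941 array and 5.37 on the control array (-0.11). FZD7 was lower on both of its probe sets, at 6.08 on the miR-941 array and 6.27 on the control array (-0.18), and at 5.72 and 5.93 (-0.21). The pair of FZD7 readings agreed to within 0.02 (SD).

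The co-receptors LRP5 and LRP6, which are close relatives and act side by side with the Frizzled receptors, differed in opposite directions. LRP5 read 1.71 on the miR-941 array and 1.31 on the control array (0.40) on its only detected probe set, 209468_at. LRP6 was lower on all 3 of its probe sets. They read 4.57 on the miR-941 array and 4.88 on the control array (-0.31), 2.03 and 2.15 (-0.11), and 1.68 and 1.92 (-0.24). The median for LRP6 was -0.24 ± 0.10 (SD over 3 probe sets). The LRP5 reading was dim and rested on 1 probe set, while the lower LRP6 reading was repeated by each of its probe sets.

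Among the genes that set how much receptor is on the cell surface, LGR4 was higher, and LGR5, ZNRF3 and RNF43 were lower. LGR4 and LGR5 bind R-spondins, which raise Wnt signalling by restraining the membrane ubiquitin ligases ZNRF3 and RNF43, and these ligases remove Frizzled receptors. LGR4 read 5.25 on the miR-941 array and 4.94 on the control array (0.31), and 1.57 and 0.94 on a dimmer probe set (0.63). LGR5 read 2.60 on the miR-941 array and 2.78 on the control array (-0.18). ZNRF3 read 5.26 on the miR-941 array and 5.53 on the control array (-0.27), and RNF43 read 3.62 and 3.72 (-0.10). LGR5, ZNRF3 and RNF43 each rested on 1 detected probe set, and their differences were below the spread of 0.31 between probe sets.

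APC had the most negative difference of the 38 genes on the brightest probe set, although DKK3 was lower by the mean over detected probe sets (-0.47, against -0.44 for APC). That DKK3 mean includes dim readings near the detection level (-0.44 and -0.76). APC is the large scaffold that holds beta-catenin in the destruction complex, and its loss is known to raise beta-catenin. Its 3 detected probe sets were all lower. Probe set 203525_s_at read 5.79 on the miR-941 array and 6.32 on the control array (-0.53), 203526_s_at read 3.31 and 3.90 (-0.59), and 203527_s_at read 1.17 and 1.36 (-0.19). The mean over them was -0.44 ± 0.21 (SD over 3 probe sets), and the smallest difference was on the probe set nearest to the detection level. All 3 are _s_at probe sets, which can match several transcripts, so APC has no value once such probe sets are left out.

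The scaffolds and kinases that work with APC differed in direction. AXIN1, the scaffold that limits assembly of the complex, read 3.71 on the miR-941 array and 4.02 on the control array (-0.32) on its 1 probe set. AXIN2, its relative and a target of beta-catenin, read 2.78 on the miR-941 array and 2.90 on the control array (-0.12), but its dimmer probe sets were higher by 0.20 and 0.58, and its median was 0.20. GSK3A and GSK3B encode the kinases that mark beta-catenin for degradation. GSK3A was higher on both probe sets (2.26 on the miR-941 array and 2.10 on the control array, 0.16, and 1.40 and 1.13, 0.26). GSK3B read 6.12 on the miR-941 array and 6.17 on the control array (-0.06), with 0.08 and -0.39 on its other detected probe sets. For AXIN2 and GSK3B the direction thus changed with the probe set.

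CSNK1A1 encodes the kinase that primes beta-catenin for GSK3, and it was covered by 10 detected probe sets. The brightest, 213860_x_at, read 7.83 on the miR-941 array and 7.80 on the control array (0.03), and over the 10 probe sets 3 were higher, 6 lower and 1 equal, from -0.82 to 0.29 with a median of -0.13. BTRC, which recognises phosphorylated beta-catenin for ubiquitination, read 4.56 on the miR-941 array and 4.72 on the control array (-0.16), with -0.49 and 0.24 on its other detected probe sets. CTNNB1, which encodes beta-catenin itself, read 9.49 on the miR-941 array and 9.56 on the control array (-0.07). Its dimmer probe sets lay on both sides, at 2.39 and 3.12 (-0.72) for 1554411_at and at 1.65 and 1.39 (0.26) for 223679_at. Beta-catenin mRNA was therefore nearly the same on the arrays by its brightest reading, and the spread of its 3 probe sets was 0.50 (SD).

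The Dishevelled genes, whose proteins carry the signal from Frizzled receptors, differed in opposite directions. DVL1 read 4.79 on the miR-941 array and 4.74 on the control array (0.05). DVL2 was higher on both probe sets, with 5.18 on the miR-941 array and 5.07 on the control array (0.12), and 2.997 and 2.579 (0.42). DVL3 read 5.36 on the miR-941 array and 5.69 on the control array (-0.34), while its second probe set read 1.25 on both. NKD1, an inhibitor that binds Dishevelled and is a target of beta-catenin, was exactly equal on all 3 probe sets, which read 2.34, 1.39 and 1.39 on both arrays. Values this low do not show that its mRNA was unchanged.

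**Figure D2:**
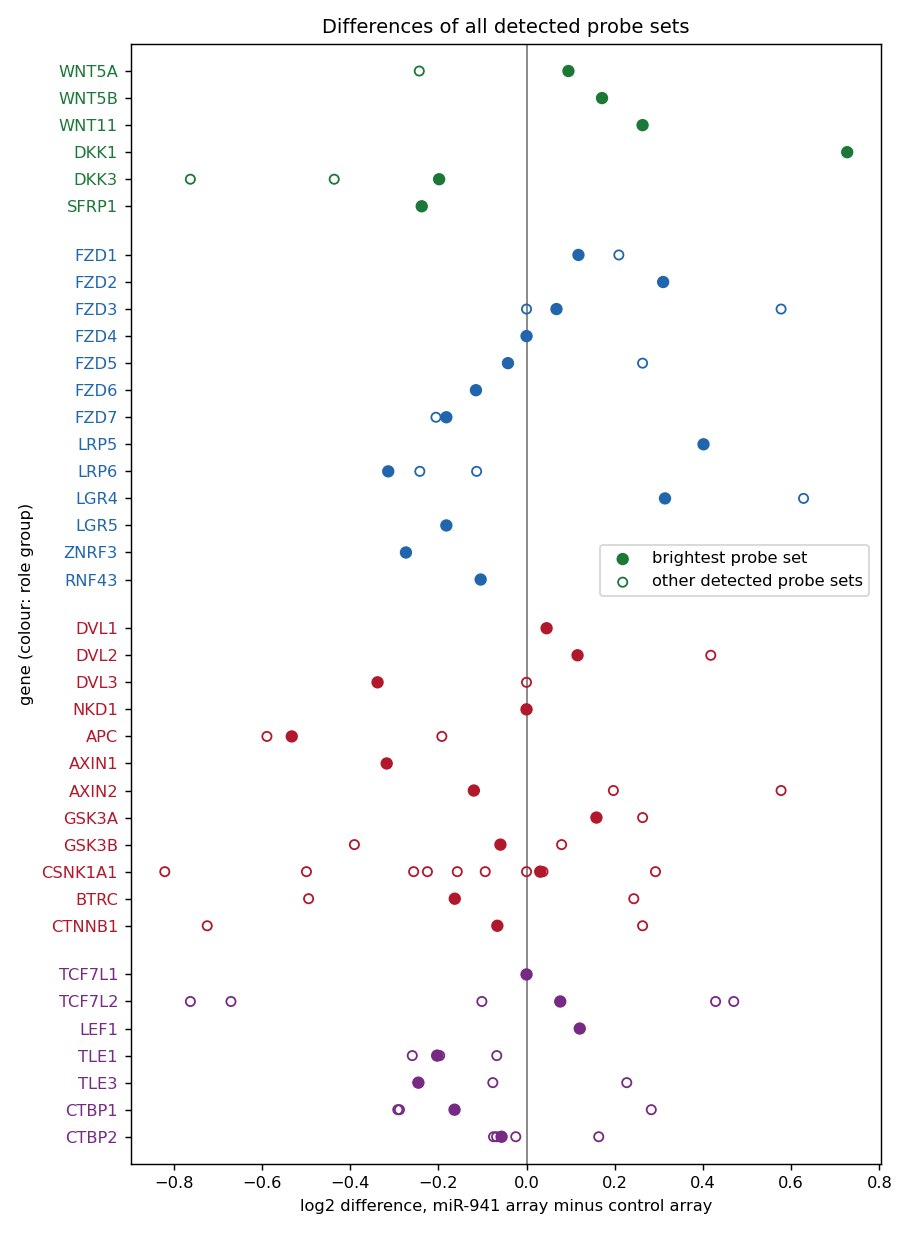
Log2 difference, miR-941 array minus control array (horizontal axis), of all 91 detected probe sets of the 38 Wnt genes, with filled points for the brightest probe set of a gene and open points for the others. All probe sets of APC, DKK3, LRP6, TLE1 and FZD7 lie below 0, while those of CSNK1A1, CTNNB1 and TCF7L2 spread over both sides.

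In the nucleus, the TCF and LEF factors were near equality on their brightest probe sets. The listed corepressors were slightly lower there, by less than the spread of 0.31 between probe sets. TCF7L2 read 6.12 on the miR-941 array and 6.04 on the control array (0.08), and its 6 detected probe sets split evenly, 3 higher and 3 lower, from -0.76 to 0.47. LEF1 read 6.44 on the miR-941 array and 6.32 on the control array (0.12). TCF7L1, the family member known mostly as a repressor, read 2.60 on both arrays. The TCF7L2 spread of 0.53 (SD over 6 probe sets) was larger than any of these differences.

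The corepressors TLE1, TLE3, CTBP1 and CTBP2 were each lower on the brightest probe set. TLE proteins bind TCF factors in place of beta-catenin, and CTBP proteins are corepressors of many transcription factors. TLE1 was lower on all 4 detected probe sets, with 8.002 on the miR-941 array and 8.205 on the control array (-0.20), 6.01 and 6.27 (-0.26), 5.62 and 5.69 (-0.07), and 1.29 and 1.48 (-0.20). Its mean was -0.18 ± 0.08 (SD over 4 probe sets). TLE3 read 4.97 on the miR-941 array and 5.21 on the control array (-0.25), with 3 of 4 probe sets lower and a mean of -0.09. Of the TLE genes outside the members, TLE2 read -0.13 with its other probe set higher, TLE4 read 0.04 and TLE5 was equal. CTBP1 read 7.46 on the miR-941 array and 7.62 on the control array (-0.16), with 3 of 4 lower, and the exception was dim (1.16 and 0.88). CTBP2 read 8.55 on the miR-941 array and 8.61 on the control array (-0.06), with 4 of 5 lower and a mean of -0.01. Over the nuclear genes 17 of 25 detected probe sets were lower and 7 higher, but the same shares over all detected probe sets were not counted. The 25 come from 7 genes. By brightest probe set 4 of these 7 were lower, where 42.4% of all detected genes were.

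Agreement between probe sets of a gene was read against all genes. Of the 23 Wnt genes read by at least 2 detected probe sets, 5 had each of these lower (APC, DKK3, FZD7, LRP6 and TLE1) and 4 all higher (DVL2, FZD1, GSK3A and LGR4), against 17.1% and 16.5% of all 6106 such genes. Among the 15 with 3 or more, 4 were lower throughout (APC, DKK3, LRP6 and TLE1) and 0 higher, against 10.7% and 8.42% of 2578 genes. Probe sets on both sides of 0 were found for 11 of the 23, against 46.4% of the 6106 genes. Over the 91 detected probe sets, 33 were higher, 50 were lower and 8 were exactly equal, and their median was -0.07. All 23317 detected probe sets with 1 symbol had a median of 0.00, and 12.4% of them were exactly equal. Their shares higher and lower were not counted. Probe sets of 1 gene share the same hybridisation on each array and are not replicates.

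The Wnt genes were also divided by brightness, a division that was not tested. Of the 28 Wnt genes above the 75th percentile of level (3.37), 18 read lower, 9 read higher and 1 equal (median -0.09). Of all 8086 genes of that level 46.2% read lower and 47.8% higher (median 0.00). Of the 10 between the detection level and that percentile, 6 read higher, 2 read lower and 2 equal (median 0.16). Of all 5064 genes there 44.0% read higher and 36.3% lower (median 0.00). The second group holds DKK1 and LRP5.

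**Figure D3:**
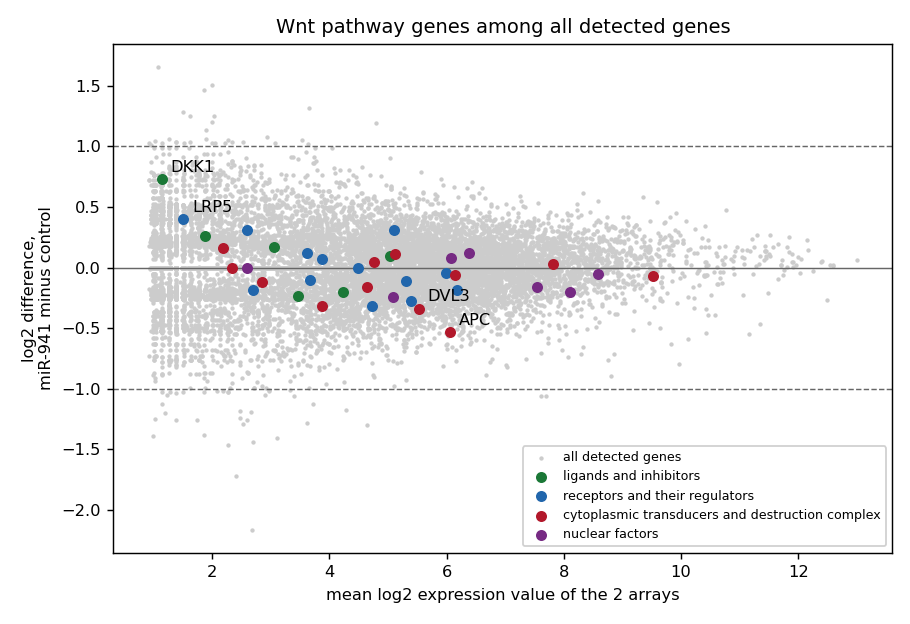
Log2 difference, miR-941 array minus control array (vertical axis), against the mean log2 value of the 2 arrays (horizontal axis) for all 13150 detected genes in grey and the 38 Wnt genes in colour by role, with dashed lines at 2-fold. All Wnt genes lie inside the dashed lines, and DKK1 and LRP5 sit at the dim end, where grey points form vertical bands.

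Exact repeats limit what the dim readings can show. Of the 83 detected Wnt probe sets with a difference other than 0, 43 had a difference that recurred, in size and to 6 decimals, on 10 or more other detected probe sets (51.8%), close to the 52.9% over all 20415 such probe sets. The DKK1 difference recurred on 40 other probe sets and the LRP5 difference on 211. Those of the dimmer DKK3 probe sets, -0.44 and -0.76, recurred on 225 and 67. Outside the members, differences of the sizes of WNT7B and WNT10B recurred on 231 and 180. WNT11 and the dimmer probe sets of FZD5 and CTNNB1 all had the same difference of 0.26. For each it recurred on 211 other probe sets, a count that includes the other ones named here. Below the 75th percentile of level 25 of 31 Wnt probe sets were of this kind (80.6%, against 84.1% of all detected probe sets there), and above it 18 of 52 (34.6%, against 28.5%). The brightest readings of APC, LRP6, DVL3, AXIN1 and LGR4 were not among them.

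The wider pathway, described from a list of 122 other genes of Wnt signalling, had a median close to that of all detected genes. Of 95 detected genes 40 read higher (42.1%), 48 read lower (50.5%) and 7 equal. Of all detected genes 46.3% read higher and 42.4% lower. Their median was -0.01, and none differed by 2-fold. The highest was CTNNBIP1, which encodes an inhibitor that keeps beta-catenin from TCF factors, at 4.50 on the miR-941 array and 3.83 on the control array (0.67). It was followed by the planar polarity gene PRICKLE2 (0.50), CDC73, a subunit of the PAF1 transcription complex (0.44), WLS, the carrier that takes Wnt proteins to the cell surface (0.44), and the DKK receptor gene KREMEN2 (0.44). All 3 WLS probe sets were higher, while CDC73 had 1 of 3 equal and a median of 0.18. PRICKLE2 (2.08 on the miR-941 array and 1.58 on the control array) and KREMEN2 (2.10 and 1.66) were dim, with 1 probe set each. Differences of these PRICKLE2 and KREMEN2 sizes recurred on 185 and 225 other detected probe sets. Among the 5 lowest were DACT1, which binds Dishevelled (-0.62), the formin DAAM1, which acts downstream of Dishevelled (-0.51), and JUP, which encodes plakoglobin, a relative of beta-catenin (-0.50). All 3 detected DAAM1 probe sets were lower, while DACT1 and JUP rested on 1 probe set each.

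Known target genes of beta-catenin were lower more often than higher, by small amounts. Of those detected, 56.3% read lower and 34.4% higher, against 42.4% and 46.3% of all detected genes. The same lean was seen in the 38 members (52.6% lower) and the wider pathway (50.5% lower), so it was not particular to target genes. Of 45 listed, 32 were detected, of which 11 read higher, 18 read lower and 3 equal (median -0.10), and 25 of these 32 are not among the 42 members. Of the 25, 14 read lower, 9 read higher and 2 equal (median -0.10). The lowest were the growth factor gene BMP4 (-0.56), ENC1 (-0.52), SOX4 (-0.52), the repressor gene SNAI2 (-0.35) and the receptor kinase gene MET (-0.31). SOX4, a transcription factor, read 8.92 on the miR-941 array and 9.44 on the control array, with 5 of 6 probe sets lower and a median of -0.23, whereas the medians of ENC1 (-0.04) and MET (0.00) were at or near 0. The highest after DKK1 were NOTUM, which encodes an enzyme that inactivates Wnt proteins (0.26), TBXT (0.24), EPHB3 (0.23) and FST (0.23), all reading between 1.76 and 1.99 on the miR-941 array and between 1.53 and 1.77 on the control array. The NOTUM difference recurred in size on 231 other detected probe sets, and EPHB3 and FST had the same difference. EPHB3 had 1 of 2 probe sets equal and a median of 0.11. Among the 8 members that are feedback targets, 7 were measured, and 2 were higher (DKK1 and LEF1), 4 lower (AXIN2, ZNRF3, RNF43 and LGR5) and NKD1 equal.

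**Figure D4:**
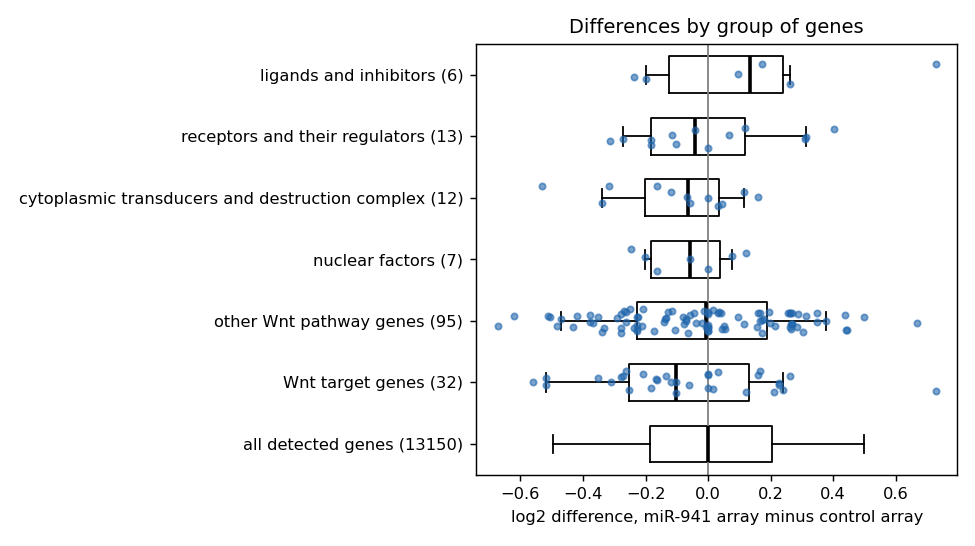
Log2 difference, miR-941 array minus control array (horizontal axis), for the role groups of the Wnt genes, the wider pathway, beta-catenin target genes and all detected genes, with the number of genes in brackets. Boxes span the quartiles with the median as a thick line, whiskers run from the 5th to the 95th percentile, and points are genes. The group medians run from -0.10 for the target genes to 0.13 for ligands and inhibitors, within the box of all detected genes.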

How the data were processed

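RNA from precipitates of 293T cells was measured on 2 arrays, 1 per group, grouped by the transfected oligonucleotide. The deposited log2 values, 1 for each of 54675 probe sets, came from the authors' use of RMA, per the labels; the submitters' processing notes also name affy and MAS5, and the scale and centring are not given in the sources used here. They were taken as log2 because they reach 13.7, above the natural logarithm of the largest 16-bit reading (11.1). RMA fits arrays together, and many dim values repeat exactly. Depth does not apply to arrays; their number limits the precision.

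Of the probe sets, 41091 had 1 symbol in the platform annotation, 1801 several, 11721 none, and 62 were controls. Symbols were updated by Entrez identifier to the RefSeq table of GRCh38.p14, which held 41037. No build is named for the arrays, so the only coordinates given are those of the printed RefSeq sequences. With 1 array per group no test was made. The members, lists and rules were chosen with earlier results of these data known. All measured members are named; of the other lists, the 5 highest and 5 lowest, some of which are not reported here. Differences and counts were computed with Python 3.11.15 and pandas 2.3.3, tested on simulated data, under 10 alternatives. A planned count of miR-941 seed matches was not run, since no transcript sequences were used here.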

Additional observations from a re-analysis of the deposited data

How the results depend on the processing

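Arrays without replicates allow no error of their own, so the spread between probe sets of a gene (0.31) was used to judge whether a value moved. The median difference of the Wnt genes stayed between -0.09 and -0.03 under 9 alternatives: the mean or median over probe sets, leaving out _x_at and _s_at probe sets, no level filter, the 75th percentile of level, a loess trend removed (span 0.3), quantile normalization, centring on the median, and low values set to the detection level. The median of all genes moved by at most 0.01. None of the 38 genes reached 2-fold under any of them; with 1.5-fold as the threshold 1 gene did (DKK1), and 0 did once low values were also set to the detection level, a combination added after seeing the data. The lowest gene was APC as reported, and DKK3 by the mean over probe sets (-0.47) and without _x_at and _s_at probe sets. The number higher was 15 as reported and 9 above the 75th percentile of level, where 28 genes remain. Between 9 and 18 genes were higher and between 17 and 22 lower. The direction of WNT5A, FZD5, AXIN2, CSNK1A1 and TCF7L2 turned with the mean or median over probe sets, and that of WNT5A, FZD5, CSNK1A1 and CTBP1 without _x_at and _s_at probe sets. Of 325 values of single genes under the alternatives, 6 moved by more than the spread. These were AXIN2 (0.22 by the mean and 0.20 by the median), and, without _x_at and _s_at probe sets, WNT5A (-0.24), DKK3 (-0.76), BTRC (-0.49) and CTBP1 (0.28). Many of the 325 values could not move, so their share is no measure of robustness. Dropping the level filter kept every brightest probe set, and 15 genes had 1 detected probe set, whose mean and median are its own value. With the mean over probe sets and with the loess trend removed, the median was -0.01 and -0.03 for the wider pathway and -0.05 and -0.10 for the target genes. For APC the values ran from -0.53 to -0.44 and for DKK1 from 0.58 to 0.74. No paired analysis was possible because there was 1 array in a group, which also left none to leave out. The planned miR-941 seed matches were not run.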
